A study of Mus musculus with 20 samples.

Results

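Neuronal intermediate filaments are the most abundant filaments of the mature axon, and 5 genes encode their subunits. These are Nefl, Nefm and Nefh, the light, medium and heavy neurofilament chains, Ina, which encodes alpha-internexin, and Prph, which encodes peripherin. The 5 genes were taken by symbol from the 39174 genes listed for each library, and their levels were followed in all 20 libraries of an RNA-seq study of compartmentalised mouse motoneuron cultures. Cells panned as motoneurons from the spinal cord of mid-gestation CD-1 mouse embryos had been grown for a week in microfluidic chambers, in which axons extend through channels into a compartment of their own. Control cultures carried an empty lentiviral expression vector, and Tdp-43 knockdown cultures carried a lentivirus expressing a short hairpin RNA against Tardbp, the gene of the RNA-binding protein Tdp-43. The 4 groups were Control somatodendritic (n = 4), Tdp-43 knockdown somatodendritic (n = 6), Control axonal (n = 4) and Tdp-43 knockdown axonal (n = 6). The hairpin was 1 of 4 that had been designed, and the control vector carried no hairpin, so that a response to any hairpin and a response to loss of Tdp-43 cannot be told apart here. The labels do not say that the libraries of a group came from separate cultures, so that the p-values measure the spread between these libraries, which may in part be technical.

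The light chain is the core of the neurofilament, since the medium and heavy chains need a partner such as the light chain or alpha-internexin to assemble. The medium and heavy chains carry long tails that project from the filament and are heavily phosphorylated in axons. Alpha-internexin appears early in neuronal development and falls relative to the neurofilament chains as neurons mature, while peripherin is best known from peripheral and motor neurons. Aggregated neurofilaments in motoneurons and a low level of NEFL mRNA are long known from amyotrophic lateral sclerosis, and several RNA-binding proteins, TDP-43 among them, have been described to bind this mRNA.

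In the GRCm38 annotation (GENCODE M21), Nefl (ENSMUSG00000022055) lies on the plus strand of chromosome 14, from 68083863 to 68089095, in 4 exons. Nefm (ENSMUSG00000022054) is annotated on the minus strand from 68082590 to 68124846, a range that holds Nefl, and its main transcript has 3 exons. Nefh (ENSMUSG00000020396) has 4 exons on the minus strand of chromosome 11, from 4938754 to 4948064. Ina (ENSMUSG00000034336) has 3 exons on the plus strand of chromosome 19, from 47014698 to 47025327, and Prph (ENSMUSG00000023484) has 9 exons on the plus strand of chromosome 15, from 99055174 to 99058978. Nefl and Ina, the pair whose ratio is compared in each group, share a coding exon of 125 bases, in which 95 bases (76.0%) are the same in both genes. It is shown for how closely reads of these genes resemble each other, with the shared bases in capitals and each gene read 5′ to 3′ on the plus strand:
Nefl exon 2, chr14:68085974-68086098: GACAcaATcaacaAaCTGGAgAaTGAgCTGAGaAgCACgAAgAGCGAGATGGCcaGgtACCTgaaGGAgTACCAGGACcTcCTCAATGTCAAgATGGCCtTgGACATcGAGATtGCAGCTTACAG
Ina exon 2, chr19:47021833-47021957: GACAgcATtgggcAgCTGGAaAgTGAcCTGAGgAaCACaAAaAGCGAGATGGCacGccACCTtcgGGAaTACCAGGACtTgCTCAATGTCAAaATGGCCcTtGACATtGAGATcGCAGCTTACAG
The longest run of bases shared exactly by the main transcripts of any pair of the 5 genes was 35 bases, between Nefm and Prph.

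Annotation overlaps bear on how these levels are read. The last exon of a second, longer Nefm transcript covers part of the first exon of Nefl on the opposite strand and runs on past the start of Nefl, and the overlap at chr14:68083863-68084970 spans 1108 bases, which is 32.8% of the Nefl transcript. The main Nefm transcript shares no base with Nefl. Whether strand was used for these FPKM values is not given in the sources used here, so that reads of this stretch may have been split between Nefl and Nefm. The part of this overlap in the Nefl and Nefm values was not tested. Ina overlaps exons of the nucleotidase gene Nt5c2 on the opposite strand over 456 bases, or 14.1% of its transcript, and Nt5c2 was at 12.8 ± 1.36 FPKM (SD, n = 4) in control and 11.2 ± 4.02 FPKM (SD, n = 6) in knockdown somatodendritic libraries. In axonal libraries Nt5c2 was at 5.68 ± 1.68 FPKM (SD, n = 4) in control and 14.1 ± 10.498 FPKM (SD, n = 6) in knockdown cultures, and its part in the Ina values was not tested.

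Sequence matches to the hairpin and to the preferred motif of Tdp-43 were counted on the sense strand of the main transcripts. The hairpin is aimed at a site in a coding exon of Tardbp, on the minus strand at chr4:148618697-148618717, with the 7 bases that pair with the seed of the guide in capitals:
Tardbp site: gcataatagcaatAGACAGTt
Neither the whole site nor AGACAGT occurred in Nefl, Nefm, Nefh, Ina or Prph, while 31.3% of 2497 genes with transcripts of 3240 to 3994 bases, the range of Nefl, Nefm, Nefh and Ina, held AGACAGT. For the TG repeats that Tdp-43 prefers, the letters GTGTGT were searched. Nefl held 1 match, in its 3′ UTR at chr14:68088392-68088421 (plus strand), shown with the match in capitals:
Nefl 3′ UTR site: agctcatgaatgGTGTGTtgtctgcttaat
The other 4 transcripts held none, and 72.2% of the 2497 genes of like length held at least 1, so that a match is common among transcripts of this size.

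All levels are FPKM, that is, fragments scaled to the length of the transcript and to the total of the library, so that genes can be compared with each other per length. The FPKM intervals imply a depth between 0.103 and 1 relative to the deepest library, with the knockdown groups reaching lower (0.103 to 0.760 in axonal and 0.143 to 0.698 in somatodendritic libraries) than the control groups (0.530 to 1). Tardbp was at 19.0 to 30.8 FPKM in somatodendritic control and 0 to 8.54 FPKM in somatodendritic knockdown libraries. In axons it was at 13.4 to 32.3 FPKM in control libraries and at 1.21 to 13.98 FPKM in 5 of the 6 knockdown libraries. The library labelled axonal knockdown replicate 1 had 33.2 FPKM, against its label, and the axonal knockdown values of the members are also given without it. Of 6 motoneuron markers measured, Chat, Isl2 and Mnx1 were listed at 0 in all 20 libraries. Slc5a7 reached at most 0.268 FPKM, and the 6 markers together reached 9.86 to 24.4 FPKM in somatodendritic libraries. The 6 spinal interneuron markers together were at 114 to 187 FPKM and the 7 astroglia and progenitor markers at 250 to 577 FPKM there. The cells are therefore called motoneuron cultures, after their label, and not motoneurons.

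In control somatodendritic libraries Ina was the most abundant of the 5 mRNAs per length. It was at 160, 160, 163 and 160 FPKM in replicates 1 to 4, a coefficient of variation of 0.722%. Nefl was at 115, 89.7, 86.6 and 89.7 FPKM and Nefm at 83.6, 72.1, 86.3 and 94.5 FPKM. The ranges of Nefl and Nefm overlapped, and both lay below Ina in every library. Nefh, whose protein belongs to mature large axons, was far lower, at 5.58, 6.81, 4.17 and 6.88 FPKM. Prph was at 1.05 and 0.784 FPKM in replicates 1 and 3 and was listed at 0 in replicates 2 and 4. Over all 20 libraries Prph was listed at 0 in 13, never exceeded 3.06 FPKM and never rested on more than 1.14 implied fragments, which left it below the mean of 1 FPKM required for the limma tests.

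**Figure D1:**
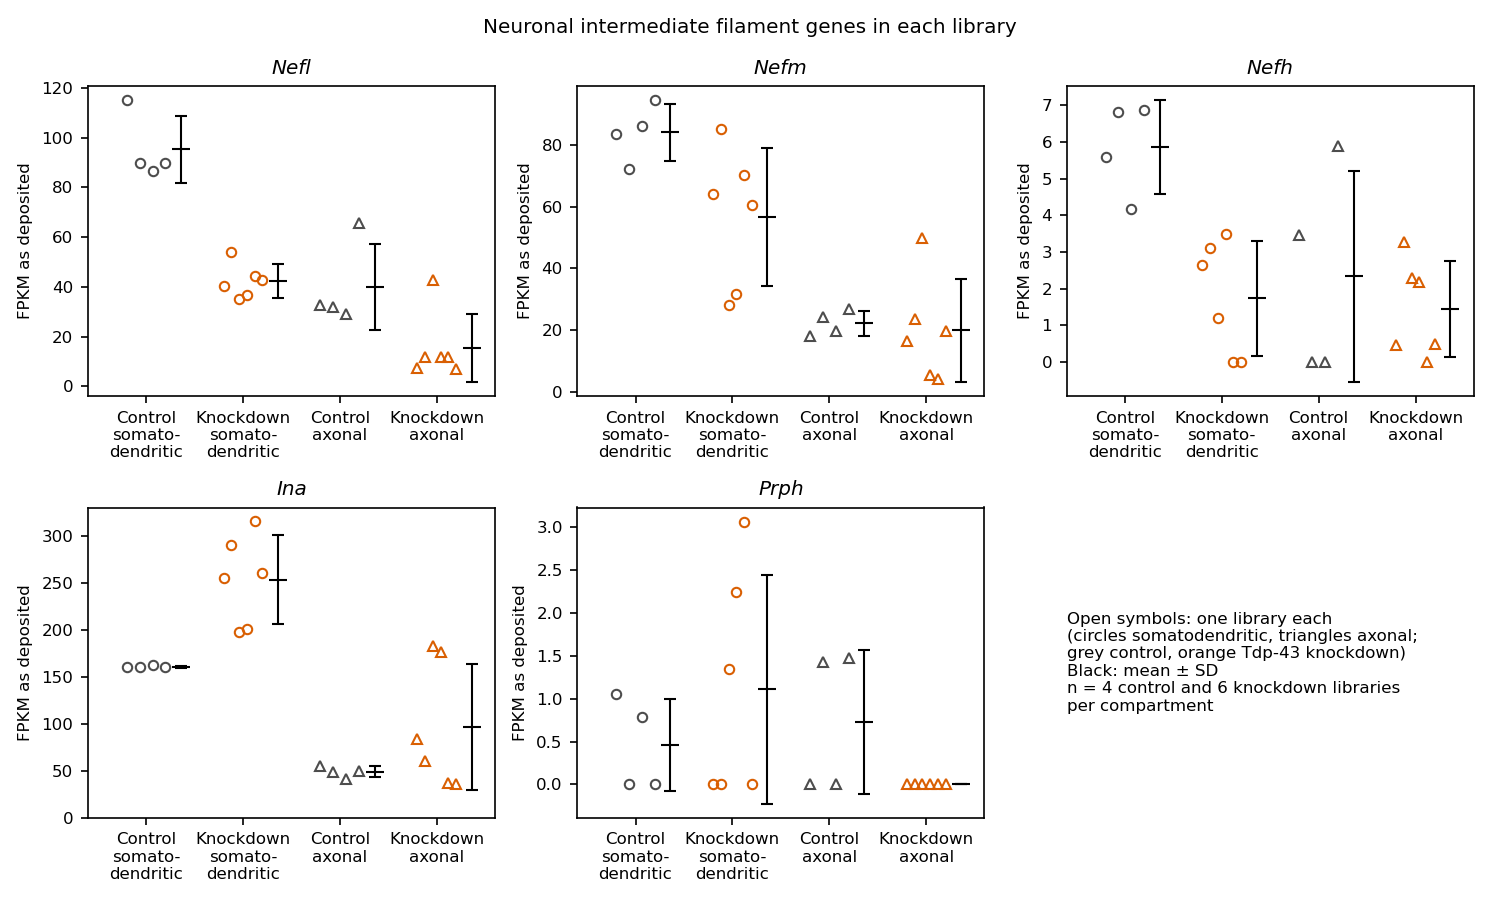
FPKM as deposited (vertical axis, linear) of each of the 5 genes in each of the 20 libraries, grouped by compartment and condition along the horizontal axis, with the mean and SD of each group in black. Nefl is lower and Ina higher in all 6 somatodendritic knockdown libraries than in the 4 controls, and Nefh and Prph stay below 7 FPKM throughout.

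Knockdown against control in the somatodendritic compartment asked which of these mRNAs differ between the 2 kinds of culture where cell bodies are present. Nefl fell to 38.3% ± 6.66 (SD, n = 6) of its control mean, while Ina was at 136% ± 25.1 (SD, n = 6), both in FPKM scaled between libraries by the median of ratios. Nefm was at 58.2% ± 23.2 and Nefh at 25.3% ± 22.5 (SD, n = 6) of control on the same scale. In all 4 genes the scaled values of the knockdown libraries lay outside the range of the control libraries, 3 below, as in 3.6% of the 13762 genes tested, and 1 above, as in 1.9%. The margin was slight for Nefm, at 79.5 against 79.6 scaled FPKM in the nearest knockdown and control libraries, and for Ina, at 179 against 177. By limma with Benjamini-Hochberg adjustment, 1 of the 4 members had an adjusted p under 0.05 and was lower, against 0.756% of all genes tested in this direction and 0.974% in either, and 4 had an unadjusted p under 0.05, against 13.8%. In bulk libraries, fewer cells of a type and less RNA per cell cannot be told apart.

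Nefl ranged from 35.3 to 54.1 FPKM as deposited in the 6 knockdown libraries, with a median of 41.5 FPKM, against 86.6 to 115 FPKM in control. Every knockdown library thus lay below every control library before scaling as well. On the log2(scaled FPKM + 1) scale the difference was -1.37 (SE 0.169, limma adjusted p = 0.00143), lower in 6 of 6 libraries. The exact two-sided permutation test of the FPKM as deposited gave p = 0.00476, the smallest that 4 libraries against 6 allow. The call held in each of 10 fits that left out 1 library (log2 difference -1.44 to -1.27). It was lost under 2 of 11 other settings. These were a fit shared by all 20 libraries (-1.37, limma adjusted p = 0.0933) and a fit that blocked on the replicate number, given in the closing section.

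Nefm was at 28.0 to 85.1 FPKM in knockdown libraries, with a median of 62.3 FPKM. Replicates 3 and 4 were low, at 28.0 and 31.6 FPKM, and replicate 2, at 85.1 FPKM, lay inside the control range of 72.1 to 94.5 FPKM before scaling. The log2 difference was -0.88 (SE 0.292, limma unadjusted p = 0.0105, adjusted p = 0.190). Nefh was listed at 0 in knockdown replicates 5 and 6, the shallowest somatodendritic libraries, and was at 1.19 to 3.48 FPKM in the other 4. Its log2 difference was -1.70 (SE 0.513, limma unadjusted p = 0.00582, adjusted p = 0.143), on no more than 7 implied fragments in a knockdown library. It was -2.94 with a pseudocount of 0.1 and -0.80 with a pseudocount of 5 (limma adjusted p = 0.324 and 0.0818). Neither passed the adjusted threshold.

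Ina was at 197 to 316 FPKM in knockdown libraries, with a median of 258 FPKM, and all 6 lay above the 160 to 163 FPKM of control. The log2 difference of the scaled values was 0.42 (SE 0.148, 95% interval 0.10 to 0.74, limma unadjusted p = 0.0147, adjusted p = 0.219). With the FPKM as deposited it was 0.63 (limma adjusted p = 0.0514), and the exact two-sided permutation test gave p = 0.00952. It was 0.33 (limma unadjusted p = 0.0538) when libraries under a relative depth of 0.5 were left out, and 0.41 (limma unadjusted p = 0.226) when all 20 libraries shared 1 fit. The median log2 difference of all genes tested was -0.13 after scaling and 0.04 before it, and Ina was positive under each scaling tried. Prph was at 1.34, 2.25 and 3.06 FPKM in knockdown replicates 3 to 5 and listed at 0 in the other 3 (exact two-sided permutation test, p = 0.405).

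The summed FPKM of the 5 genes differed by less than its spread between libraries. It was 347 ± 15.8 FPKM (SD, n = 4) in control and 355 ± 73.8 FPKM (SD, n = 6) in knockdown somatodendritic libraries. The make-up of this sum did differ. Nefl made up 25.4% to 31.5% of it in control and 10.2% to 13.4% in knockdown libraries, and Ina 43.9% to 48.7% against 67.1% to 75.0%. Nefm held 24.2% ± 2.27 in control and 15.4% ± 3.56 in knockdown libraries, and Nefh 1.69% ± 0.392 and 0.528% ± 0.487.

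**Figure D2:**
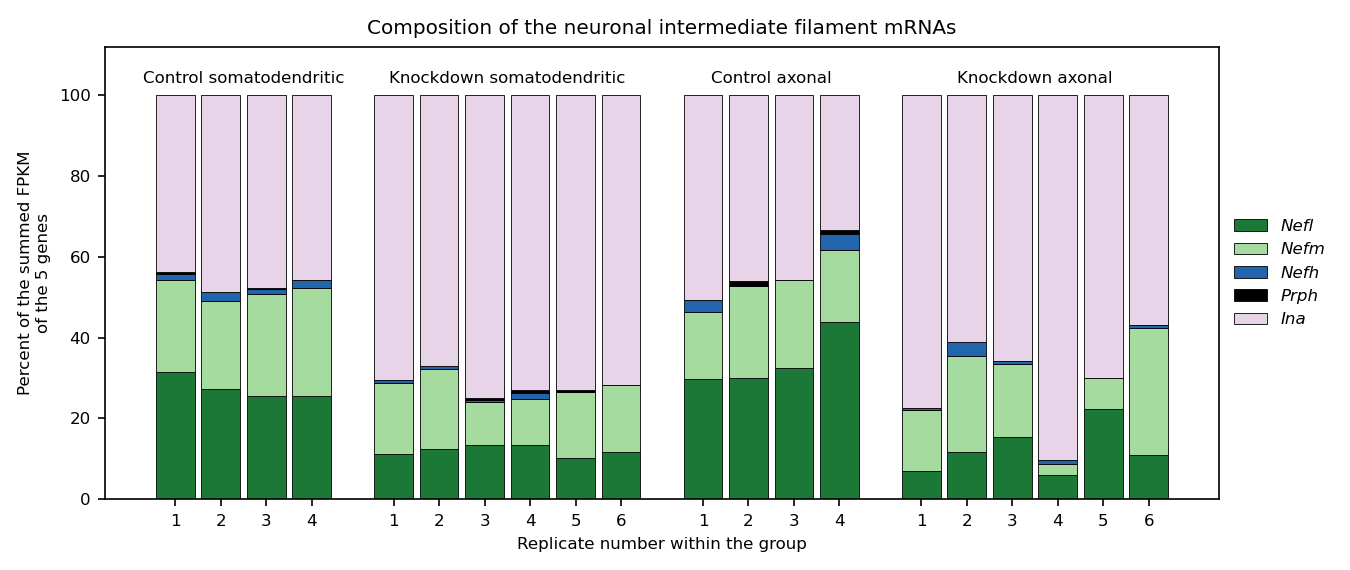
Percent of the summed FPKM of the 5 genes (vertical axis) that each gene holds, with 1 stacked bar per library, ordered by group and replicate number along the horizontal axis. Ina holds 67.1% to 75.0% in somatodendritic knockdown libraries against 43.9% to 48.7% in control, and 56.8% to 90.3% in axonal knockdown libraries against 33.4% to 50.6% in control.

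Ratios between subunits depend on how libraries are scaled to each other only through the 1 FPKM added to each term, which matters for the low genes Nefh and Prph. They were compared on the log2((FPKM + 1)/(FPKM + 1)) scale by two-sided exact permutation tests, 10 ratios in 5 comparisons. Of these 50 tests, 13 had an unadjusted p under 0.05 and 0 had an adjusted p under 0.05. Of the 50, 20 involve Prph, which is at or near 0, and they hold 5 of the 13. With the 30 tests without Prph alone, a set chosen after the data were seen, 3 had an adjusted p under 0.05 (0.0476 each): Ina per Nefl in both compartments and Ina per Nefm in the somatodendritic compartment, all after knockdown. In somatodendritic libraries there were 1.39, 1.79, 1.88 and 1.79 Ina fragments per kilobase for each of Nefl in control replicates 1 to 4, and 5.36 to 7.12 in the knockdown libraries, with a median of 5.86. The groups did not overlap, and the mean log2 ratio was 1.79 higher in knockdown libraries, or 3.45-fold (exact permutation test, p = 0.00476, the smallest possible, adjusted p = 0.0794). Ina per Nefm was 1.70 to 2.22 in control and 3.41 to 7.06 in knockdown libraries, again without overlap (log2 difference 1.30, 2.46-fold, exact permutation test, p = 0.00476, adjusted p = 0.0794). Ina per Nefh, in log2, was 2.19 higher in knockdown libraries (exact permutation test, p = 0.0143, adjusted p = 0.159), a value that depends on the low Nefh levels. It was 3.40 with a pseudocount of 0.1, 1.33 with a pseudocount of 5, and 1.49 in the 8 libraries whose relative depth reached 0.5, where no Nefh value is 0. With a pseudocount of 5, 4 of the 10 ratios had an adjusted p under 0.05, Ina per Nefl and Ina per Nefm among them (0.0476 each). Nefm per Nefl was 0.895 ± 0.155 (SD, n = 4) in control and 1.30 ± 0.374 (SD, n = 6) in knockdown libraries, which overlap (p = 0.1 in the exact permutation test).

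In the axonal compartment the same comparison asked whether the mRNAs found in axonal libraries differ between knockdown and control cultures. Nefl had the largest log2 difference of the 4 tested members, at 25.3% ± 17.2 (SD, n = 6) of its control mean in scaled FPKM. Of the 4 members tested, 1 had an unadjusted p under 0.05 and was lower, as were 6.46% of 13958 genes, and 0 had an adjusted p under 0.05, where 0.401% did. Nefl was also the 1 member whose scaled groups did not overlap, lower, as in 2.02% of all genes tested. Nefm was at 59.2% ± 42.5 and Ina at 131% ± 85.8 (SD, n = 6) of control, and the knockdown libraries of both spread across the control range. In FPKM as deposited the percentages were 38.5% ± 34.0 for Nefl, 89.5% ± 75.4 for Nefm and 197% ± 137 for Ina (SD, n = 6), with log2 differences of -1.52 (limma adjusted p = 0.293), -0.56 and 0.67. The median log2 difference of all genes tested was -0.17 after scaling and 0.23 before it.

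Nefl was at 32.7, 32.1, 29.2 and 65.8 FPKM in control axons and at 7.46, 11.6, 42.7, 11.7, 11.8 and 6.91 FPKM in knockdown axons. Knockdown replicate 3 stood apart from the other 5, which all lay below every control library, and it overlapped the controls before scaling but not after it. The log2 difference was -2.02 (SE 0.469, 95% interval -3.02 to -1.02, limma unadjusted p = 0.000567, adjusted p = 0.0907), and the exact two-sided permutation test of the FPKM gave p = 0.0333. Without knockdown replicate 3 the difference was -2.28 (limma adjusted p = 0.0348). When the library labelled axonal knockdown replicate 1 was left out it was -1.84 (limma adjusted p = 0.148), and the adjusted p lay between 0.0348 and 0.302 over the 10 fits that left out 1 library. When all 20 libraries shared 1 fit, Nefl was called in axons (-2.06, limma adjusted p = 0.00118). The values of axonal knockdown replicate 5 rest on few fragments, 2.22 for Nefl and 0.342 for Nefm.

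Nefm was at 17.97 to 26.7 FPKM in control axons and at 3.99 to 49.9 FPKM in knockdown axons, with a median of 18.1 FPKM. Its knockdown values spread on both sides of the control range, with replicates 4 and 5 lowest and replicate 3 highest. The log2 difference was -1.05 (SE 0.559, limma unadjusted p = 0.0781, adjusted p = 0.636). Ina was at 55.5, 49.1, 41.2 and 50.05 FPKM in control axons and at 35.8 to 183 FPKM in knockdown axons, with a median of 72.2 FPKM. Replicates 3 and 4 of the knockdown were high, at 182.9 and 177 FPKM, and replicates 5 and 6 were below every control library. The log2 difference of Ina was 0.15 (95% interval -0.79 to 1.09, limma adjusted p = 0.941), and it turned to -0.02 without knockdown replicate 3 and to -0.10 without knockdown replicate 4. Leaving out axonal knockdown replicate 1, as labelled, gave log2 differences of Nefm, Ina and Nefh of -1.04, 0.18 and -0.24 (limma adjusted p = 0.620, 0.930 and 0.944). Nefh was listed at 0 in 2 of 4 control and 1 of 6 knockdown axonal libraries, and at most 9 implied fragments supported its value in any axonal library. The log2 difference of Nefh was -0.35 (limma adjusted p = 0.920), and it turned to 0.20 without control replicate 4 and to 0.11 with a pseudocount of 0.1. Prph was at 1.43 and 1.48 FPKM in 2 control libraries and was listed at 0 in all 6 knockdown libraries.

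Within libraries Ina was the highest of the 5 genes in all 12 knockdown libraries of both compartments, and in 3 of 4 control axonal libraries. In control axonal replicate 4 Nefl was above Ina, and Nefm lay below both in every control axonal library. Ina per Nefl was 1.70, 1.53, 1.41 and 0.761 in control axons and 3.13 to 15.2 in knockdown axons, with a median of 5.20, and the groups did not overlap. The log2 ratio was 2.19 higher in knockdown axons, or 4.56-fold (exact two-sided permutation test, p = 0.00476, the smallest possible, adjusted p = 0.0794). Leaving out the library labelled axonal knockdown replicate 1 made it 2.03 higher (exact permutation test, p = 0.00794). Nefl made up 29.8% to 43.9% of the summed FPKM of the 5 genes in control axons and 5.94% to 22.4% in knockdown axons. Ina per Nefm was 1.88 to 3.09 in control and 1.81 to 33.7 in knockdown axons, which overlap (log2 difference 1.22, exact permutation test, p = 0.119). Nefm per Nefl was 0.405 to 0.755 in control and 0.338 to 2.87 in knockdown axons (log2 difference 0.96, exact permutation test, p = 0.152). Both ratios depend on the shallow knockdown replicates 4 and 5, with 2.8 and 0.34 implied fragments of Nefm. Where the relative depth reached 0.5, with 3 knockdown libraries left, Ina per Nefm was 0.54 higher in log2 (exact permutation test, p = 0.257) and Nefm per Nefl 1.64 higher (exact permutation test, p = 0.0286, the smallest possible). The 3 include the library labelled axonal knockdown replicate 1, and no value at this depth was computed without it. Nefm per Nefl was 2.19 in that library and 1.17 and 2.87 in replicates 3 and 6. Over all axonal libraries the astroglia and progenitor markers summed to 593 to 888 FPKM in control and 245 to 1231 FPKM in knockdown axons. The spinal interneuron markers summed to 29.8 to 66.8 and 5.35 to 189 FPKM. The 4 nuclear RNAs followed (Malat1, Neat1, Meg3 and Snhg11) summed to 440 to 742 FPKM in control and 1155 to 2307 FPKM in knockdown axons as deposited, without overlap, and to 518 to 952 and 820 to 1861 after scaling, with overlap. As deposited they were at 777 to 1147 FPKM in control and 677 to 1366 FPKM in knockdown somatodendritic libraries. Malat1 was at 382 ± 75.9 FPKM (SD, n = 4) in control and 1391 ± 295 FPKM (SD, n = 6) in knockdown axons (log2 difference 1.33, limma adjusted p = 0.0739). The part of other cells and of RNA from nuclei or cell bodies in the axonal differences was not tested.

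**Figure D3:**
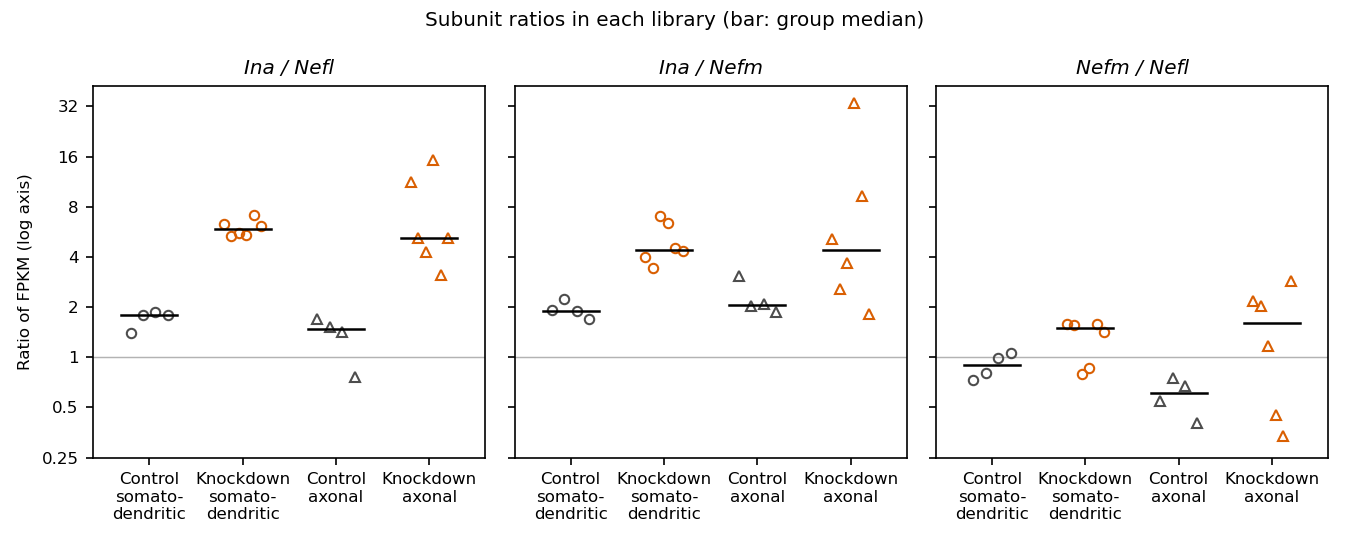
Ratios of FPKM as deposited (vertical axis, log scale) in each library, for Ina to Nefl, Ina to Nefm and Nefm to Nefl, by group along the horizontal axis, with bars at the group medians. The Ina to Nefl ratio lies between 0.761 and 1.88 in the 8 control libraries and between 3.13 and 15.2 in the 12 knockdown libraries.

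The comparison of axonal with somatodendritic libraries asked how much of each mRNA is found in the axon relative to other transcripts. In control cultures Nefm and Ina had an unadjusted p under 0.05, both lower in axons, as were 7.31% of 14062 genes, and 0 members had an adjusted p under 0.05, where 2.1% did (limma). Ina was at 45.7% ± 5.01 and Nefm at 39.5% ± 5.31 (SD, n = 4) of the somatodendritic mean in scaled FPKM, with log2 differences of -1.12 (SE 0.361, limma adjusted p = 0.111) and -1.32 (SE 0.501, limma adjusted p = 0.189). In both genes every axonal library lay below every somatodendritic one, as in 7.59% of all genes. Nefl was at 62.1% ± 23.4 (SD, n = 4), a log2 difference of -0.73 (SE 0.371, limma unadjusted p = 0.0621), with the 65.8 FPKM of axonal control replicate 4 nearest to the somatodendritic values. Without that library the log2 difference was -0.96 (limma unadjusted p = 0.0208, adjusted p = 0.201). Nefh differed by -1.25 (SE 0.704, limma unadjusted p = 0.0904), with 2 of 4 axonal libraries listed at 0. In FPKM as deposited the levels in axons were lower still, at 30.4% ± 3.66 for Ina, 26.3% ± 4.77 for Nefm and 41.9% ± 18.1 for Nefl (SD, n = 4), and Nefl did not overlap between the compartments either. On that scale Ina and Nefm were called (log2 difference -1.70 and -1.89, limma adjusted p = 0.0189 and 0.0447) and Nefl was not (-1.30, limma adjusted p = 0.0711), while the median of all genes tested moved from -0.03 to -0.47.

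In knockdown cultures Nefl, Ina and Nefm were all lower in axons, with an adjusted p under 0.05 for 3 of 4 members tested, where 2.42% of all genes were called lower and 5.35% in either direction (limma). Nefl was at 40.3% ± 26.6, Ina at 42.99% ± 27.2 and Nefm at 39.5% ± 27.9 (SD, n = 6) of their somatodendritic means in scaled FPKM. The log2 differences were -1.42 for Nefl (SE 0.303, limma adjusted p = 0.00961), -1.42 for Ina (SE 0.295, limma adjusted p = 0.00806) and -1.53 for Nefm (SE 0.409, limma adjusted p = 0.0320). The calls of Nefl and Ina held in all 20 fits that left out 1 library and that of Nefm in 14 of them. Without the library labelled axonal knockdown replicate 1 Nefm differed by -1.52 (limma adjusted p = 0.0531), and Nefl and Ina by -1.24 and -1.39 (limma adjusted p = 0.0219 and 0.0156). Without axonal knockdown replicate 5 Nefm differed by -1.20 (limma adjusted p = 0.0670). When the libraries of each condition were fitted alone the calls changed sides, with Ina and Nefm called in control (limma adjusted p = 0.00442 and 0.00482) and no member in knockdown cultures (limma adjusted p = 0.0547 to 0.125). Nefh was listed at 0 in 2 somatodendritic and 1 axonal library and differed by 0.02 (SE 0.575, limma unadjusted p = 0.973).

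Other neuronal mRNAs were lower in axons by a like amount. Of 14 pan-neuronal genes, 6 had an adjusted p under 0.05 in control cultures, all lower in axons, and all 14 had a negative log2 difference, with a median of -1.20 against -0.03 for all genes tested (limma). The 4 tested members had a median of -1.19. Among those called, Stmn2, which encodes a regulator of microtubules, differed by -1.31, Tubb3, a neuronal tubulin, by -1.20 (called in 13 of 20 fits without 1 library), and the neuronal RNA-binding protein genes Elavl4 and Rbfox3 by -1.97 and -1.83. In knockdown cultures the median over the pan-neuronal genes was -1.21, and 6 were called, all lower in axons. When libraries were scaled to the pan-neuronal genes instead, 0 members had an unadjusted p under 0.05 in either condition. Ina then differed by -0.03 in control and -0.22 in knockdown cultures, and Nefl by -0.28 in knockdown cultures, while the median of all genes moved to 0.84 and 0.76. The lower level of these mRNAs in axons is thus relative to all genes, and no difference relative to the pan-neuronal genes was detectable in these libraries.

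Of 8 intermediate filament genes of other classes tested in control cultures, 7 had a positive log2 difference after scaling and 1 a negative one. Vim, which encodes vimentin, and Nes, which encodes nestin, were called, both higher in axonal libraries, where 2.1% of all genes were called in either direction. Gfap went the other way, at a mean of 1.80 FPKM in axonal and 9.36 FPKM in somatodendritic control libraries. Vim was at 448 ± 82.0 FPKM (SD, n = 4) in axonal and 150 ± 49.6 FPKM (SD, n = 4) in somatodendritic control libraries (log2 difference 2.19, SE 0.417, limma adjusted p = 0.00653), and Nes at 74.7 ± 14.2 and 9.87 ± 5.85 FPKM (log2 difference 3.51, limma adjusted p = 0.00606). Vimentin and nestin form the filaments of progenitors, glia and fibroblasts. The astroglia and progenitor markers, which include both genes, summed to 593 to 888 FPKM in control axonal and 399 to 577 FPKM in control somatodendritic libraries. Without Vim and Nes the order of the medians turned, with 66.4 to 452 FPKM (median 108 FPKM) in axonal and 251 to 337 FPKM (median 284 FPKM) in somatodendritic libraries. The 6 fibroblast markers summed to 16.7 to 58.8 and 9.51 to 16.9 FPKM. The part of cells other than neurons in the compartment difference was not tested.

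Whether the knockdown acted differently in the compartments was tested as the difference of the differences. No member had an unadjusted p under 0.05 (0 of 4, where 5.61% of all genes had one, and 0.0711% had an adjusted p under 0.05, limma). Nefl gave -0.69 (SE 0.478, 95% interval -1.68 to 0.30, limma unadjusted p = 0.163), Ina -0.29 (95% interval -1.26 to 0.67) and Nefm -0.21 (95% interval -1.55 to 1.13). Nefh gave the largest value in size and the only positive one, 1.27 (limma unadjusted p = 0.178, adjusted p = 0.959), on few fragments. Without axonal control replicate 4 it was 1.85 (limma unadjusted p = 0.0494, adjusted p = 0.759), and without 1 library it lay between 0.80 and 1.85. Without axonal knockdown replicate 3 the value for Nefl was -0.96 (limma unadjusted p = 0.0275, adjusted p = 0.689). It was -0.52 when axonal knockdown replicate 1, as labelled, was left out (limma unadjusted p = 0.265). The Ina to Nefl ratio, taken as the axonal minus somatodendritic difference of libraries with the same condition and number, differed by 0.40 in log2 between conditions (exact permutation test, p = 0.486), although the numbers need not pair cultures. Between compartments the ratio differed by -0.40 in control (exact permutation test, p = 0.171) and by -0.00 in knockdown cultures (exact permutation test, p = 0.998). These intervals are wide, and a difference between compartments of the size of the somatodendritic Nefl change itself lies inside that of Nefl.

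**Figure D4:**
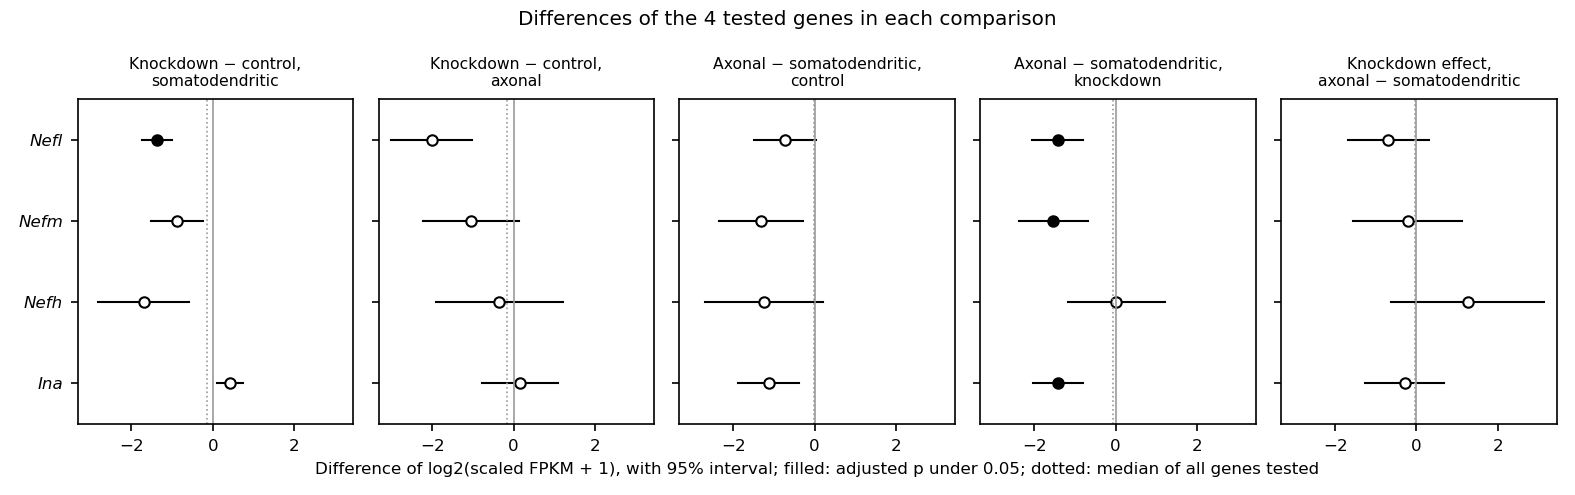
Differences of log2(scaled FPKM + 1) (horizontal axis) with 95% intervals for the 4 tested genes in each of the 5 comparisons, with filled points where the limma adjusted p is under 0.05 and a dotted line at the median of all genes tested. Filled points mark Nefl in the somatodendritic knockdown comparison (-1.37) and Nefl, Nefm and Ina between the compartments of knockdown cultures (-1.42, -1.53 and -1.42).

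Genes whose products handle neurofilaments were followed beside the members, by the same limma tests. Of 6 genes of neurofilament turnover, 1 changed in the somatodendritic compartment after knockdown. Trim2, which encodes a ubiquitin ligase that binds the light chain, was at 54.6 to 61.8 FPKM in control and 103.2 to 189 FPKM in knockdown libraries, without overlap (log2 difference 1.10, SE 0.181, limma adjusted p = 0.0105). The call held in all 10 fits without 1 library, and was lost when all 20 libraries shared 1 fit (limma adjusted p = 0.507). In axons Trim2 differed by 0.32 (limma adjusted p = 0.891). Of 14 kinases and phosphatases that act on neurofilament tails, 0 had an adjusted p under 0.05 in the somatodendritic compartment, 2 had an unadjusted p under 0.05 and were higher and 2 lower. The 3 of highest level differed by 0.31 (Ppp2r1a), 0.26 (Mapk10) and -0.53 (Gsk3b). Of 9 linkers and motors, 0 had an adjusted and 1 an unadjusted p under 0.05, and Kif5c, Dync1h1 and Macf1 differed by 0.38, 0.14 and 0.03. In axons the FPKM of the 9 linkers and motors summed to 426 to 472 in control and 742 to 1067 in knockdown libraries as deposited. After scaling these sums were 507 to 556 and 644 to 1011. Of the 9 genes, 6 had a positive and 3 a negative log2 difference, with a median of 0.12 against -0.17 for all genes tested. Kif5c, a kinesin motor gene, was at 83.6 ± 51.7 FPKM (SD, n = 4) in control and 270.5 ± 78.2 FPKM (SD, n = 6) in knockdown axons (log2 difference 1.26, limma unadjusted p = 0.00780, adjusted p = 0.328). None of these 3 lists held a gene with an adjusted p under 0.05 in axons after knockdown, where 0 turnover genes, 1 kinase or phosphatase gene and 1 linker or motor gene had an unadjusted p under 0.05.

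Among 5 genes whose proteins have been described to bind the Nefl mRNA, Tardbp itself fell in somatodendritic knockdown libraries (log2 difference -3.06, limma adjusted p = 0.0228, called in 6 of 10 fits without 1 library), and 2 others had an unadjusted p under 0.05. The 14 pan-neuronal genes had no adjusted p under 0.05 there, 4 were higher and 3 lower at an unadjusted p under 0.05, and their median log2 difference was -0.03. Gap43, Tubb3 and Map2, the 3 of highest level, differed by 0.14, -0.20 and 0.48. Of the intermediate filament genes of other classes, 0 of 8 had an adjusted p under 0.05 after knockdown in either compartment, and 3 somatodendritic and 2 axonal genes had an unadjusted one. Vim differed by -0.78 and Nes by -0.76 in the somatodendritic compartment (limma adjusted p = 0.279 and 0.512). Among markers of other cells there, 1 of 6 spinal interneuron markers was called (Gad2, -1.26, limma adjusted p = 0.0282, called in 5 of 10 fits without 1 library). At an unadjusted p under 0.05, 1 of the 6 was higher and 2 were lower. The higher one was Pax2, an interneuron transcription factor gene. It was at 16.8 ± 2.37 FPKM in control and 27.7 ± 5.93 FPKM in knockdown libraries as deposited (log2 difference 0.47 after scaling, limma adjusted p = 0.337). Of 7 astroglia and progenitor markers 0 were called, while 1 was higher and 2 were lower at an unadjusted p under 0.05. Their sum was 399 to 577 FPKM in control and 250 to 455 FPKM in knockdown libraries. Of these, named like Pax2 after their values were seen, Fabp7 averaged 173 ± 42.6 FPKM (SD) in the 4 control and 93.7 ± 34.0 FPKM in the 6 knockdown libraries (log2 difference -1.14, limma adjusted p = 0.0648), and Gfap 9.36 ± 1.68 and 22.4 ± 7.35 FPKM (0.92, limma adjusted p = 0.140). These log2 differences are smaller in size than that of Nefl and larger than that of Ina. The part of a shift in cell types in the Nefl and Ina differences was not tested.

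Between compartments, Plec, which encodes the linker plectin, was higher in control axons (log2 difference 2.32, limma adjusted p = 0.0326, called in 14 of 20 fits without 1 library). In knockdown cultures 3 linkers and motors were called, all higher in axons, Kif5b (1.35), Plec (2.27) and Dst (1.35, called in 13 of 20 fits without 1 library). Of the kinases and phosphatases 4 were called there, all lower in axons, the neuronal kinase gene Cdk5 (-1.48), its activators Cdk5r1 (-1.46) and Cdk5r2 (-1.19) and Ppp2r1a (-0.78), which turned to 0.41 when libraries were scaled to pan-neuronal genes. The calls of Cdk5 and Cdk5r2 held in 5 and 6 of 20 fits without 1 library, and those of Cdk5r1 and Ppp2r1a in 19 and 16. Of the turnover genes Capn2, a calpain gene, was higher in knockdown axons (1.04, limma adjusted p = 0.0485), a call that held in 4 of 20 such fits. Under the other settings Cdk5 was called in 4 of 10, Cdk5r1 in 10 of 11, Cdk5r2 in 5 of 11, Ppp2r1a in 7 of 11 and Capn2 in 3 of 11. The pan-neuronal genes had a median log2 difference of -1.21 in this comparison.

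Across the 20 libraries, Nefl followed Nefm (Pearson's r = 0.765 of log2 scaled values) more closely than it followed Ina (r = 0.403), and Nefm and Ina gave r = 0.519. The genes most like each member among 5743 genes whose mean reached 10 FPKM were Tubb2a, a beta-tubulin gene (r = 0.910), Sbk1 (0.865) and Reep1 (0.863) for Nefl, and Thy1, a neuronal surface protein gene (0.920), Nxph1 (0.913) and Kcnip1 (0.881) for Nefm. For Ina they included Crmp1 (0.958) and Gap43, a growth cone protein gene (0.948). For Nefh, at its low level, they were the unnamed genes Gm24428, Gm26135 and Gm22357 (0.768, 0.768 and 0.749). The points share libraries, depth and the group differences above, so that these values describe likeness over the 4 groups and no more.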

How the data were processed

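Total RNA of the axonal and somatodendritic compartments was sequenced in 20 libraries. Per the labels, the authors computed FPKM on GRCm38 with Cufflinks 2.2.1 after checks with FastQC 0.10.1, and the deposited FPKM come with a 95% interval for each gene. Settings for strand, length and filters are not given in the sources used here. The members, the other 14 gene lists and the tests were chosen with earlier results of these data known.

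Groups and replicate numbers came from the labels. Implied fragments were taken from each FPKM interval read as ± 2 SD of a count, and relative depth from 680 genes with over 3 implied fragments in every library. They cover counting error only, since PCR copies are not independent molecules. After median-of-ratios scaling of the libraries, log2(FPKM + 1) of each gene whose mean reached 1 FPKM entered limma 3.58.1 with a mean trend (R 4.3.3), knockdown against control within each compartment and the other comparisons on all 20 libraries, with Benjamini-Hochberg adjustment over all genes. The log2(FPKM + 1) scale understates the change of low genes. Ratios and FPKM were tested by exact permutation, with smallest p-values of 0.00476 (4 against 6), 0.0286 (4 against 4) and 0.00216 (6 against 6). The limma steps were tested on simulated data. Python 3.11.15, numpy 2.4.6, pandas 2.3.3, scipy 1.17.1 and matplotlib 3.10.9 were used. Sequences, exons and overlaps were read from the GRCm38 genome with GENCODE M21, and the hairpin's target from the study's oligonucleotide list.

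Named besides the 5 members are, in each list and comparison described, up to 4 genes of smallest adjusted p among those under 0.05 or, where there are none, up to 3 of highest mean FPKM, and for each member the 3 genes of highest Pearson's r. Of the genes most like Ina, 1 is not reported here. Alternatives were FPKM as deposited, quantile normalization, scaling to pan-neuronal genes, pseudocounts of 0.1 and 5, other filters, array weights, another set of libraries in the fit, a replicate block, a relative depth of at least 0.5 and leaving out each library. Leaving out the Prph ratios was added after the data were seen. Protein sequences were not used here.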

Additional observations from a re-analysis of the deposited data

Results flagged for a closer look

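Of 44 groups checked for a library far from the rest, 5 had one, where chance gives about 1 in 20. Nefl stood apart upwards in 3 groups, at 115 FPKM in somatodendritic control replicate 1, at 65.8 FPKM in axonal control replicate 4 and at 42.7 FPKM in axonal knockdown replicate 3. Ina stood at 163 FPKM in somatodendritic control replicate 3, a gap of a few FPKM within a group whose values are otherwise almost equal. The log2 ratio of Ina to Nefl was lowest, at 0.48, in somatodendritic control replicate 1, the library with the high Nefl value. No knockdown effect of a member or a ratio differed between the compartments at an adjusted p under 0.05, while Nefh per Nefl and Prph per Nefh did at an unadjusted one (for Nefh per Nefl, log2 difference 1.79, exact permutation test, p = 0.0429, adjusted p = 0.165), with Nefh listed at 0 in 5 of 20 libraries.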

How the results depend on the processing

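The fall of Nefl in somatodendritic knockdown libraries had a limma adjusted p between 0.000358 and 0.00531 under 9 alternatives and between 0.00105 and 0.00852 in 10 of 10 fits without 1 library. It was not called with all 20 libraries in the fit (log2 difference -1.37, adjusted p = 0.0933) or with a replicate block (-1.41, adjusted p = 0.0543), with a fold no smaller than the -1.37 reported. No source ties a replicate number to 1 culture. Over 5744 genes, deviations of same-numbered libraries correlated at r = -0.0879 to 0.0531 between compartments, with 3 of 10 best matched to their own number, and at -0.0418 to 0.134 between conditions, with 6 of 8, a hint from the data of pairing between conditions. With the block Ina was 0.31 higher (unadjusted p = 0.0607). With the replicate block the genes with an adjusted p under 0.05 numbered 18 and 35 after knockdown in the somatodendritic and axonal compartment, and 120 and 400 between compartments in control and knockdown cultures. With 4 pairs the block left the Ina to Nefl ratio 1.71 and 2.51 higher in log2 after knockdown in the 2 compartments (exact permutation test, p = 0.125 each, the smallest possible).

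Without a block there were 134 genes after knockdown in the somatodendritic compartment, 233 with FPKM as deposited, 212 with a pseudocount of 5, 432 with array weights, 61 with all 20 libraries in the fit, and 58 to 198 without 1 library. In axons there were 56, and 30 with a pseudocount of 0.1, 87 with array weights, 236 with all 20 libraries, and 37 to 70 without 1 library. Between compartments of control cultures there were 295. The other counts were 579 as deposited, 631 after quantile normalization, 1363 with scaling to pan-neuronal genes, 181 and 483 with pseudocounts of 0.1 and 5, 1253 with array weights, 949 with the 2 groups fitted alone, 1058 at a relative depth of at least 0.5, and 96 to 509 without 1 library. In knockdown cultures there were 753, and 3118 with pan-neuronal scaling, 495 without a filter, 179 with the 2 groups fitted alone, 370 at a relative depth of at least 0.5, and 445 to 1232 without 1 library. For the difference of differences there were 10, 5 among genes with a mean of 10 FPKM or more, and 10 to 15 without 1 library.

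Members with an unadjusted p under 0.05 numbered 4 in the somatodendritic knockdown comparison, and 2 with all 20 libraries in the fit. In axons there was 1, and 2 without a filter or with all 20 libraries, and 1 to 2 without 1 library. Between compartments in control cultures there were 2, 4 as deposited or with array weights, 0 with pan-neuronal scaling, and 2 to 4 without 1 library. In knockdown cultures there were 3, and 0 with pan-neuronal scaling. The difference of differences gave 0, and 0 to 1 without 1 library. With a pseudocount of 5, 4 somatodendritic and 1 axonal ratio had an adjusted p under 0.05, as had 2 and 1 without the Prph ratios, and Nefh per Nefl between compartments of control cultures turned from -0.22 to 0.58. With pan-neuronal scaling Ppp2r1a between compartments of knockdown cultures turned from -0.78 to 0.41. The cause of these shifts was not tested. Among the members Nefh and Prph rested on the fewest implied fragments, and axonal knockdown replicate 5 had the lowest relative depth.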
